A study of Mus musculus with 10 samples.

Results

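The vascular connexins are 4 genes of gap junction proteins that endothelium is known to use, Gja1 (Cx43), Gja4 (Cx37), Gja5 (Cx40) and Gjc1 (Cx45). They were chosen by name, not by a measured value, and all 4 were found by Ensembl identifier among the 46517 Ensembl genes of the count tables, and 15 other connexin genes were examined beside them. Levels are given for lymphatic endothelial cells (LECs), for the LECs of lymphatic valves and for blood endothelial cells (BECs) of mouse ear skin. The mice were mutants with Cre-induced expression of oncogenic Pik3caH1047R and controls without it.

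Connexins assemble into channels in the plasma membrane, and the channels of neighbouring cells dock to form gap junctions that let ions and small molecules pass from cell to cell. In blood vessels Gja4 and Gja5 are known from arterial endothelium, where gap junctions carry signals along the vessel wall. In lymphatic vessels Gja1 and Gja4 are known from the growth of valves, and loss of either in mice leaves fewer or faulty valves. Gja1 is also a connexin of keratinocytes, fibroblasts and mural cells, and Gjc1 is best known from the embryonic heart and smooth muscle.

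Single cells of ear skin had been sorted on Podoplanin and CD31, with immune, red and dead cells gated away, into 384-well plates for Smart-Seq2, which reads along the whole cDNA without molecular barcodes. The 5 mutant mice carried Pik3caH1047R;Cdh5-CreERT2 (Cre+), in which the allele is expressed from the Rosa26 locus once Cre has been active and Cre is driven by the Cdh5 promoter of all endothelium. They had received 4-OHT on the dorsal side of the ears at 3 wk and were 5 wk old. Of the 2 control mice, both 5 wk old, control 1 was an untreated C57BL/6J mouse and control 2 carried the mutant strain's alleles without Cre (Cre-) and had received 4-OHT. The third control was not analysed here. Mutants 3 and 5 gave 2 plates each and every other mouse 1, and reads of a mouse were added up, so the mouse is the unit of every test and each comparison by genotype rests on 5 against 2 mice.

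After removal of poor wells, 3248 of 3456 remained, 2524 from mutant and 724 from control mice. A cell was called a LEC where the summed counts of Prox1, Flt4 and Mmrn1 reached 300 per 1000000 reads (CPM) and exceeded those of Flt1, Emcn and Podxl, a BEC where the latter sum was larger, and a valve LEC where a LEC had 300 CPM or more of Cldn11. BECs were split further into an arterial gate (summed Sema3g, Bmx and Hey1 of 300 CPM or more and above the venous sum), a venous gate (the same for Ackr1, Selp and Nr2f2) and cells of neither gate. LECs outside the valve gate were split into cycling cells, a Ptx3 gate (300 CPM or more) and Lyve1-high (1000 CPM or more) and Lyve1-low cells. No connexin is part of a gate. The labels call the sorted cells LECs, while the paper's methods state that both LECs and BECs were sorted. The plates held 175–367 LECs and 163–340 BECs per mouse, with sums of 55616045–194353210 and 39610940–102714572 reads. Valve LECs numbered 19–57 per mouse, with 5906709–21490524 reads. All 5 further LEC markers (Pdpn, Lyve1, Ccl21a, Reln, Cldn5) were higher in LECs than in BECs and all 5 BEC markers (Plvap, Cd34, Esam, Aqp1, Cd36) lower, while 3 of 6 valve markers (Foxc2, Gata2, Neo1) were called higher in the valve gate and none lower. By their numbers the plates form 2 series. Mutants 1–4 belong to one, while mutant 5 shares the other with the controls, so that genotype and plate series largely cannot be told apart.

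Of the 4 genes, 3 had an entry in RefSeq's promoter sequences (GRCm38.p6), shown because Gja4 and Gja5 moved together in the arterial gate of BECs and Gja1 was not called there. These are the 250 bases before the RefSeq start, 5′ to 3′ on the strand of the gene, at chr10:56377050-56377299 (+) for Gja1, chr4:127314040-127314289 (-) for Gja4 and chr3:97032152-97032401 (+) for Gja5. Capitals mark matches of either strand to TGAGTCA (AP-1), ACAAT (SOX), CACCC (KLF) and GGGCGG (SP), and the last GGGTG of Gja5 shares bases with its GGGCGG.
Gja1: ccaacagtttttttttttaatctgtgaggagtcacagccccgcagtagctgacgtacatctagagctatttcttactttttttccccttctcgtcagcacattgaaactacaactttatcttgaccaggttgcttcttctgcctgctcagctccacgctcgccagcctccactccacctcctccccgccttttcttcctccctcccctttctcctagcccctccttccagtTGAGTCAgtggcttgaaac
Gja4: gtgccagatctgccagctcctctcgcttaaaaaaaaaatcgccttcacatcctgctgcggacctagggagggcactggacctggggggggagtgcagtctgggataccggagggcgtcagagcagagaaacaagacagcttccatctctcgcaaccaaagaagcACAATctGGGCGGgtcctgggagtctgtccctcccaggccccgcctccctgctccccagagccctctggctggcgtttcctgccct
Gja5: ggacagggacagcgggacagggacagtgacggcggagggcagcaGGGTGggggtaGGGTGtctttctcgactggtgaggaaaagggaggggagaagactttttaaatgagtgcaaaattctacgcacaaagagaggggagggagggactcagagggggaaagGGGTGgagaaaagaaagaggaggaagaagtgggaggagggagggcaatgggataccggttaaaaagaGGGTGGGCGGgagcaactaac

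The Gja1 window held 1 AP-1 match, the Gja4 window 1 SOX and 1 SP match, and the Gja5 window 4 KLF matches and 1 SP match. Among 32851 promoters of the same length, TGAGTCA was found in 4.46%, ACAAT in 27.7%, CACCC in 52.0% and GGGCGG in 32.7%. No match to TGTTTA (forkhead, in 12% of promoters) or TGGGAA (RBPJ, in 21.6%) was found in the 3 windows. The windows had a GC content of 50%, 61.2% and 56.4% in the same order.

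In the genome (GRCm38, GENCODE vM21) Gja1 (ENSMUSG00000050953) lies on chr10 from 56377330 to 56402513, Gja4 (ENSMUSG00000050234) on chr4 from 127311421 to 127314039, Gja5 (ENSMUSG00000057123) on chr3 from 96904693 to 97077416 and Gjc1 (ENSMUSG00000034520) on chr11 from 102799579 to 102819700. Gja1 and Gja5 lie on the plus strand, Gja4 and Gjc1 on the minus strand. Exons of Gja5 share 165 bases with Gpr89 on the other strand, whose reads cannot be told apart there. Levels between genes were compared as CPM per kilobase of the exon length deposited with the counts. For Gja1 that length is 3105 bases, where vM21 exons cover 10257, so its level per kilobase depends on the annotation.

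Gja4 was the connexin with the highest level per length in LECs and in arterial-gate BECs, and Gja5 was the lowest of the 4 in LECs. In LECs the mean over the 7 mice was 299 ± 98.0 CPM per kilobase (SD) for Gja4, 92.3 ± 27.8 for Gja1, 4.53 ± 1.24 for Gjc1 and 0.921 ± 0.593 for Gja5. Gja4 exceeded Gja1 in 7 of 7 mice. In arterial-gate BECs Gja4 had 346 ± 64.4 CPM per kilobase, Gja1 87.5 ± 53.6, Gja5 52.6 ± 22.4 and Gjc1 3.19 ± 3.36. In venous-gate BECs the mean levels were 27.1 ± 8.68 CPM per kilobase for Gja1, 10.7 ± 9.67 for Gja4, 4.05 ± 2.30 for Gjc1 and 1.36 ± 0.975 for Gja5. With the exon bases of vM21 in place of the deposited length, Gja1 had 8.21 ± 2.63 CPM per kilobase in venous-gate BECs, below the mean of Gja4, and 26.5 ± 16.2 in arterial-gate BECs, below that of Gja5. The place of Gja1 in the order of these 2 gates thus turns with the length used, while in LECs it stayed between Gja4 and Gjc1 (27.9 ± 8.41).

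**Figure D1:**
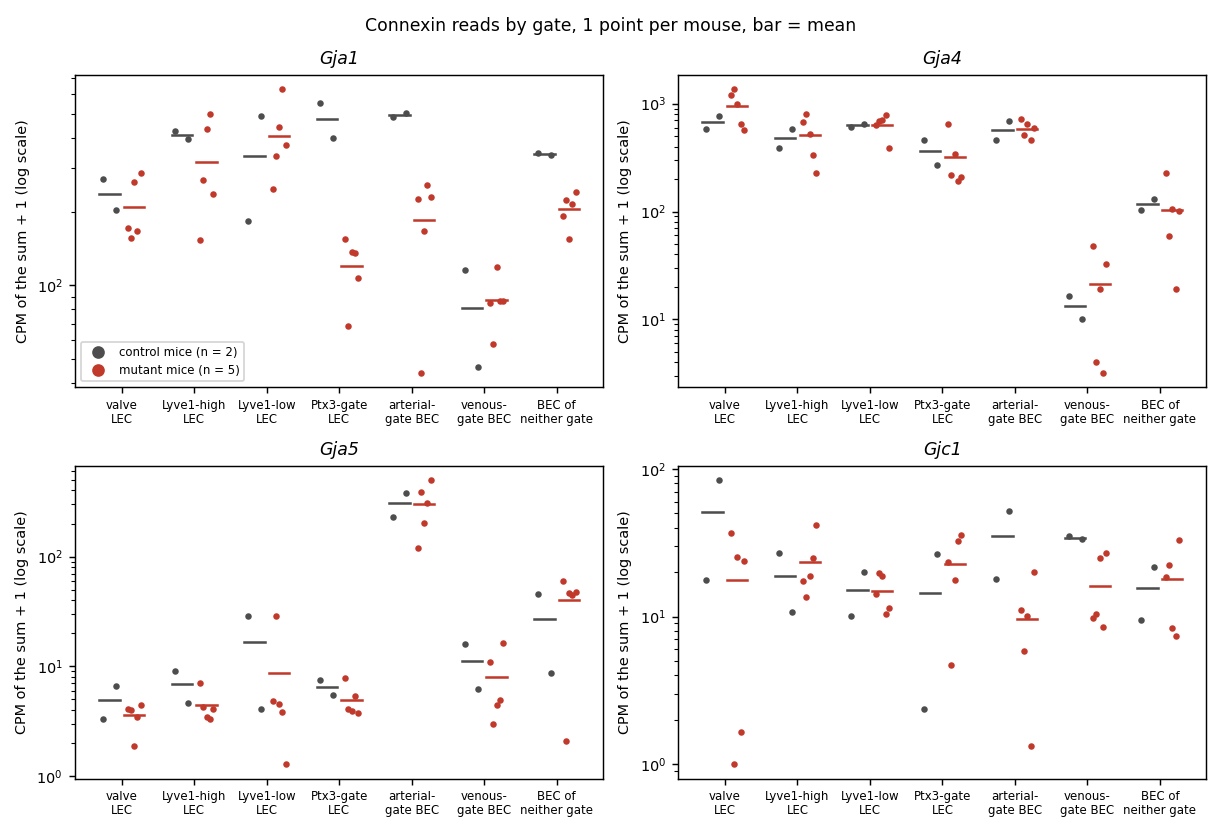
Reads of each connexin in CPM of the summed reads (plus 1, log scale) in 7 gates, with 1 point per mouse (2 control, 5 mutant) and a bar at the mean of each group. Over the 7 mice Gja4 spans means of 877 CPM in valve LECs to 18.1 CPM in venous-gate BECs, and Gja5 stands above all other gates in arterial-gate BECs.

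The order of the gates differed between the genes. Mean CPM of Gja4 over the 7 mice fell in the order valve LECs (877 ± 321 SD), Lyve1-low LECs (636 ± 122), arterial-gate BECs (583 ± 108), Lyve1-high LECs (503 ± 202), Ptx3-gate LECs (333 ± 167), BECs of neither gate (106 ± 65.0) and venous-gate BECs (18.1 ± 16.3). Ranges over mice overlapped between every pair of neighbours in this order, although Ptx3-gate LECs exceeded BECs of neither gate, and these exceeded venous-gate BECs, in 7 of 7 mice. For Gja1 the order of mean CPM began with Lyve1-low LECs (386 ± 151) and Lyve1-high LECs (343 ± 126), went on with arterial-gate BECs (272 ± 166), BECs of neither gate (243 ± 72.6), Ptx3-gate LECs (221 ± 182) and valve LECs (216 ± 55.5), and ended with venous-gate BECs (84.2 ± 26.9). Only the last step, from valve LECs to venous-gate BECs, was free of overlap. For Gja5 the 302 ± 129 CPM of arterial-gate BECs lay above the 35.3 ± 21.8 CPM of BECs of neither gate without overlap, and the other 5 gates had means of 2.97–9.91 CPM with overlapping neighbours. All gates had 14–26.2 CPM of Gjc1 on average, and no neighbours differed beyond their spread.

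Within LECs, Gja4 was higher in valve cells than in the other LECs as a whole. In valve LECs its level was 579 and 765 CPM in controls 1 and 2 and 1209, 1374, 990, 652 and 569 CPM in mutants 1–5. In the other LECs of the same mice it was 452 and 532 CPM, and 553, 544, 458, 323 and 196 CPM. The valve cells lay higher in 7 of 7 mice and the values of the 2 gates did not overlap. Against Lyve1-low LECs alone, valve LECs were higher in 5 of 7 mice with overlapping values, and in control 1 (579 against 610 CPM) and mutant 4 (652 against 778 CPM) they were lower. In edgeR's quasi-likelihood test with mouse as a block, the log2 fold change was 1.06 (SE 0.122, adjusted p = 0.00362), against a median of -0.32 over all genes tested. This was the only member called of 4, in a comparison that called 1.43% of 19430 genes, Cldn11 of the gate left out. Gja1 had 270 and 201 CPM in valve LECs of the controls and 171, 155, 263, 165 and 285 CPM in those of the mutants, lower than in other LECs in 6 of 7 mice but not called (log2 fold change -0.37, SE 0.187, adjusted p = 0.365). Gja5 (-0.82, SE 0.603) and Gjc1 (-0.62, SE 1.20) were not called either, with adjusted p of 0.566 and 0.857.

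In BECs, both arterial connexins were concentrated in the arterial gate. Gja4 had 455 and 693 CPM there in the controls and 715, 515, 653, 459 and 589 CPM in the mutants, against 80.5 and 111 CPM and 115, 25.5, 56.6, 9.23 and 62.0 CPM in all other BECs. Gja5, a classical marker of arterial endothelium, had 229 and 381 CPM in the gate of the controls and 119, 384, 202, 305 and 497 CPM in that of the mutants. Outside it, the level of Gja5 was 36.8 and 7.27 CPM, and 28.2, 1.61, 22.3, 21.4 and 29.2 CPM. Both genes were higher in the gate in 7 of 7 mice without overlap, by a log2 fold change of 3.57 for Gja4 (SE 0.362, adjusted p = 0.000973) and of 4.14 for Gja5 (SE 0.633, adjusted p = 0.00888; edgeR, mouse as a block). The comparison called 2.67% of 18842 genes, with the 6 gate genes left out, and 2 of the 4 connexins. Gja1 was not called (0.51, SE 0.267, adjusted p = 0.381), with mutant 2 at 43.0 CPM in the gate against 165–503 CPM in the other mice. Without mutant 2 it was called at 0.77 (adjusted p = 0.0209).

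The arterial gate held 24.5 and 27.4% of the BECs of the controls and 10.9–18.7% of those of the mutants, and these cells gave 65.3 and 74.6% of the Gja4 reads of all BECs in the controls and 44.7, 67.9, 57.6, 91.4 and 64.4% in the mutants. Of the Gja5 reads of BECs, the arterial gate gave 67.4 and 96.1% in the controls and 35.4, 96.2, 51.6, 75.2 and 76.4% in the mutants. Of the Gja1 reads it gave less, 35.8 and 44.6% in the controls and 3.52–27.7% in the mutants, and BECs of neither gate gave the larger part in every mouse.

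**Figure D2:**
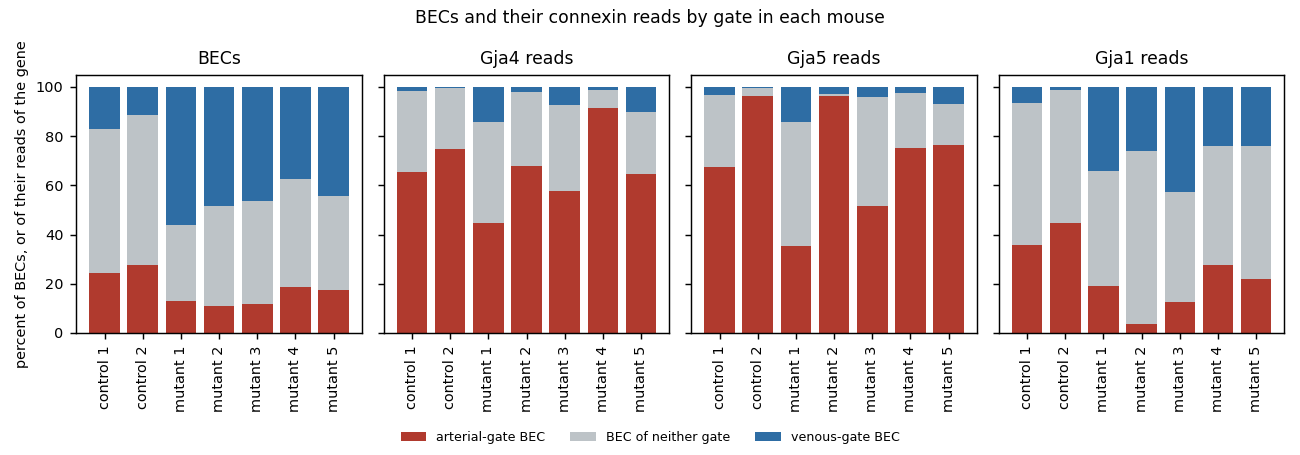
Percent of BECs (left panel) and of their Gja4, Gja5 and Gja1 reads (other panels) that fell into the arterial gate, the venous gate and neither gate, with 1 stacked bar per mouse (2 control, 5 mutant). Venous-gate cells were 11.6–17.2% of BECs in the controls and 37.4–56.1% in the mutants but gave at most 14.1% of the Gja4 reads in any mouse.

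Between the 2 kinds of endothelium, over all 7 mice, Gja1 and Gja4 were higher in LECs and Gja5 in BECs, with Gja1 nearly level in the controls. Gja4 had 468 and 554 CPM in LECs of the controls and 703, 658, 553, 357 and 235 CPM in those of the mutants, against 174 and 297 CPM and 184, 72.1, 119, 88.3 and 146 CPM in BECs. Gja5 had 12.3 and 3.97 CPM in LECs of the controls and 4.29, 7.01, 2.57, 3.69 and 3.18 CPM in those of the mutants, against 84.8 and 127 CPM and 38.7, 37.9, 41.2, 71.2 and 104 CPM in BECs. Gja4 was higher in LECs of 7 of 7 mice, by 1.78 on the log2 scale (SE 0.279, adjusted p = 0.00181), although its highest BEC value lay above its lowest LEC value. Gja5 was lower in LECs in 7 of 7 mice without overlap (-3.80, SE 0.382, adjusted p = 0.000135). Gja1 was higher in LECs in 7 of 7 mice by less (0.60, SE 0.153, adjusted p = 0.0222), and Gjc1 was not called (0.52, SE 0.299, adjusted p = 0.272). For Gja1 control 1 had 347 CPM in LECs against 336 CPM in BECs, and control 2 had 399 against 361 CPM. Its values in LECs and BECs lay further apart in every mutant than in either control. This comparison called 22% of 21994 genes, so that 3 of 4 connexins stand beside a large background. The call on Gja1 was lost without mutant 2 (adjusted p = 0.0733), mutant 3 (0.0802) or mutant 4 (0.0553), and without the cells that had 300 CPM of both marker sums (log2 fold change 0.32, adjusted p = 0.0711). These cells were most LECs, 117–231 per mouse, and 15–34 BECs per mouse. No doublet caller was run.

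**Figure D3:**
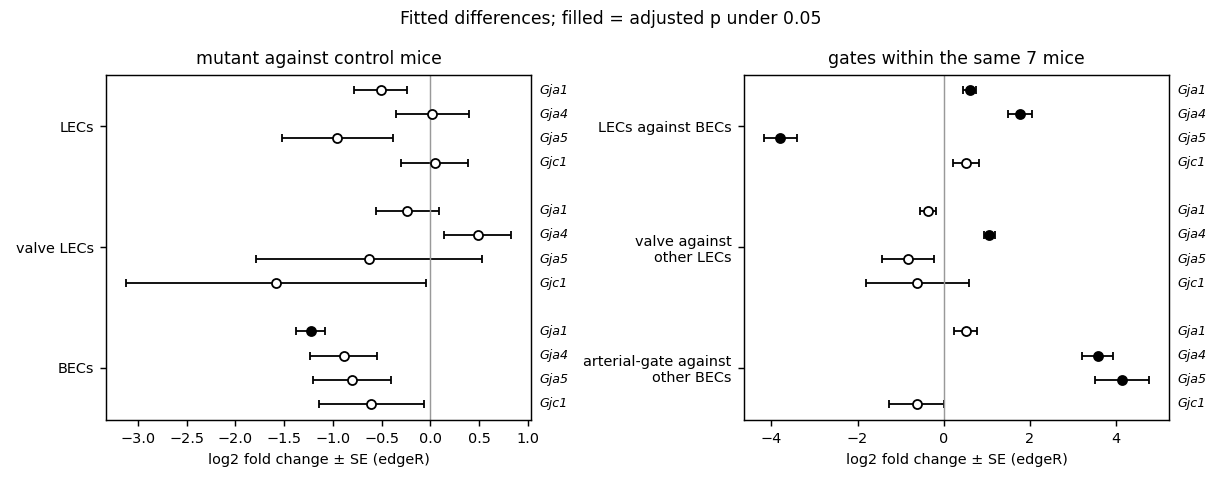
Log2 fold change with its SE (edgeR) of each connexin for mutant against control mice in 3 gates (left) and for 3 pairs of gates within the same 7 mice (right), with filled points at an adjusted p under 0.05. Of 12 values by genotype only Gja1 in BECs is filled, and of 12 between gates 6 are.

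Between genotypes, Gja1 was lower in mutant BECs, and it was the only connexin called in any of the 3 gates. Its level in BECs was 336 and 361 CPM in the controls and 135, 116, 138, 162 and 165 CPM in mutants 1–5. All mutants lay below both controls without overlap. The log2 fold change was -1.23 (SE 0.149, adjusted p = 0.00968 in edgeR's quasi-likelihood test), 1 of 4 connexins in a comparison that called 1.87% of 19478 genes. In the same sums Gja4 (-0.89, SE 0.348, adjusted p = 0.219), Gja5 (-0.80, SE 0.401, adjusted p = 0.317) and Gjc1 (-0.61, SE 0.536, adjusted p = 0.572) had lower means in mutants but were not called, and the values of each overlapped between genotypes.

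Gja1 was also compared between genotypes in each BEC gate, but whether its change differed between these gates was not tested. Arterial-gate BECs had 482 and 503 CPM of Gja1 in the controls and 224, 43.0, 165, 255 and 228 CPM in the mutants. BECs of neither gate had 346 and 338 CPM, and 190, 222, 154, 213 and 239 CPM. Venous-gate BECs had 114 and 45.4 CPM, and 83.6, 56.6, 118, 85.7 and 85.1 CPM. The genotypes thus did not overlap in the first 2 gates and overlapped in the third, where the mean was 79.9 ± 48.9 CPM in controls and 85.9 ± 21.9 CPM in mutants (SD). Fitted 1 gate at a time, the log2 fold change was -1.38 (SE 0.492, adjusted p = 0.702) in arterial-gate BECs, -0.72 (SE 0.203, adjusted p = 0.230) in BECs of neither gate and 0.12 (SE 0.390, adjusted p = 0.891) in venous-gate BECs, and none of these passed the threshold. With arterial-gate cells left out, the remaining BECs kept the call at -1.05 (SE 0.137, adjusted p = 0.0120).

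**Figure D4:**
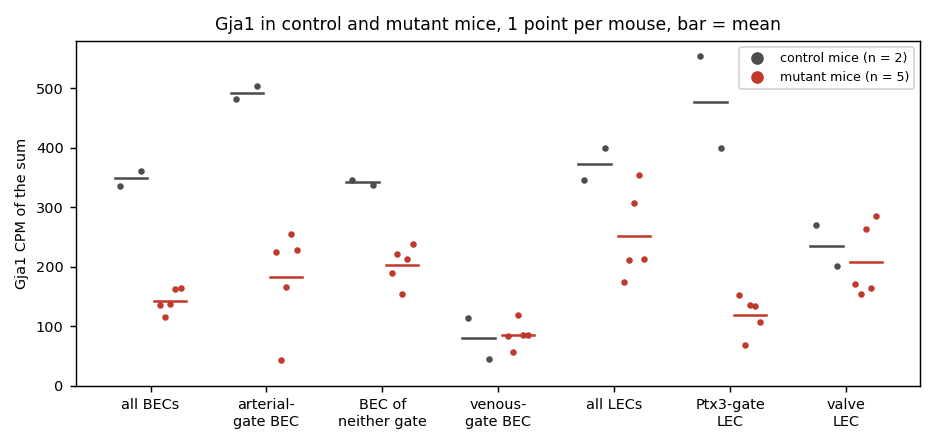
Gja1 in CPM of the summed reads in 4 sums of BECs and 3 sums of LECs, with 1 point per mouse (2 control, 5 mutant) and a bar at the group mean. In all BECs, arterial-gate BECs, BECs of neither gate and Ptx3-gate LECs every mutant lies below both controls, and in venous-gate BECs, all LECs and valve LECs the groups overlap.

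The shares of BECs in each gate differed in the same mice. The gates are set by RNA levels of their genes. Whether the cell types or only the levels of these genes differed was not tested. The arterial gate was smaller in every mutant than in either control (mean difference -11.6 percentage points) and the venous gate, where Gja1 was lowest, larger (32.1 percentage points). Each had a two-sided exact permutation p of 0.0952. The test used doubles the smaller tail, and 0.0952 is the smallest p it can give for 5 against 2 mice. In sums over cells, fewer cells of a type and less RNA per cell cannot be told apart. Markers of other skin cells moved too. The fibroblast list (Col1a1, Col1a2, Dcn, Pdgfra, Lum) summed to 570–769 CPM in control and 12.8–53.8 CPM in mutant BECs, with 4 of its 5 genes called lower in mutants and none at 0. The mural list summed to 345–636 and 33.9–335 CPM and the keratinocyte list to 576–613 and 12.9–1015 CPM, with no gene called, and immune markers to at most 5.18 CPM. With the cells left out that had 1000 CPM or more of 1 of these lists (42 and 22 BECs in the controls, 3–28 in the mutants), the log2 fold change of Gja1 was -1.21 (adjusted p = 0.00961). It was -1.16 (adjusted p = 0.0586) without control 2, and -1.04 (SE 0.231, adjusted p = 0.202) with plate series as a block, a value that rests on mutant 5 against the 2 controls. The 2 plates of mutant 5 differed, with 221 and 101 CPM of Gja1 in BECs, and those of mutant 3 less, with 121 and 159 CPM.

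In LECs, no connexin was called between genotypes, in a comparison that called 2.76% of 19758 genes. Gja1 had 347 and 399 CPM in the controls and 175, 212, 307, 354 and 213 CPM in the mutants, with mutant 4 between the controls (log2 fold change -0.51, SE 0.273, adjusted p = 0.334). Gja4 had a fitted change of 0.02 (SE 0.378, adjusted p = 0.984), Gja5 of -0.95 (SE 0.573, adjusted p = 0.387) and Gjc1 of 0.04 (SE 0.346, adjusted p = 0.959). For Gja4 the mutants spread from 235 to 703 CPM, wider than the distance between the controls, and its value turned below 0 in several of the alternatives.

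Gja1 was also compared by genotype in the LEC gates outside the valve gate, but whether its change differed between these gates was not tested. Ptx3-gate LECs were 4.37 and 15.4% of LECs in the controls and 16.3–25.3% in the mutants. These cells had 554 and 399 CPM of Gja1 in the controls, from 8 and 27 cells, and 153, 67.6, 136, 134 and 106 CPM in the mutants, from 30–93 cells. The groups did not overlap, and a fit of these cells alone, chosen after the data were seen, gave a log2 fold change of -2.10 (adjusted p = 0.0148) where 2.48% of 14625 genes were called. In Lyve1-high LECs the level of Gja1 was 423 and 394 CPM in the controls and 152, 268, 432, 499 and 235 CPM in the mutants, and in Lyve1-low LECs 183 and 488 CPM, and 247, 337, 441, 632 and 371 CPM. Both of these overlapped. Cycling LECs, of which the controls had 1 and 2 and the mutants 14–51, had 144–282 CPM of Gja1 and 26.4–244 CPM of Gja4 in the mutants. Cells that had both marker sums were most LECs of each mouse. In the smaller part of LECs left without them, Gja1 was called lower in mutants (-1.05, adjusted p = 0.0359), whereas in all LECs it was not called.

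Markers of other skin cells moved with genotype in LECs too. The fibroblast list summed to 193–382 CPM in control and 15.8–106 CPM in mutant LECs and the mural list to 91.4–118 and 32.5–59.8 CPM, both without overlap, with none of the 5 fibroblast and 1 of the 5 mural genes called lower and none of either list at 0. With the cells of 1000 CPM or more of such a list left out, Gja1 in LECs stood at -0.59 on the log2 scale (adjusted p = 0.269). In Ptx3-gate LECs the fibroblast sum was 86.8–88.8 CPM in controls and 9.36–264 CPM in mutants and the mural sum 5.00–20.4 and 20.4–105 CPM, higher in every mutant, and neither control had a cell of 1000 CPM or more of these lists in that gate. The part of these cells in the values of Gja1 in LECs was otherwise not tested.

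In valve LECs, edgeR called 0% of 13948 genes between genotypes, while 1760 had an unadjusted p under 0.05 and DESeq2 called 909. Gja4 had the levels given above, with 3 mutants above both controls, 1 between them and 1 below (log2 fold change 0.48, SE 0.347, adjusted p = 0.579). Gja1 (-0.24, SE 0.321, adjusted p = 0.798), Gja5 (-0.63, SE 1.16, adjusted p = 0.860) and Gjc1 (-1.59, SE 1.54, adjusted p = 0.701) overlapped between genotypes. The share of valve cells among LECs, which bears on every sum over LECs, was 12.6 and 10.9% in the controls and 22.3, 14.4, 15.7, 13.2 and 10.9% in the mutants (mean difference 3.59 percentage points, two-sided exact permutation p = 0.190).

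Whether the effect of genotype differed between gates was tested directly for LECs against BECs and for valve against other LECs. Between LECs and BECs, 0.182% of 22000 genes were called and no connexin, with 0.65 (SE 0.264, adjusted p = 0.410) for Gja1 as the difference of the log2 fold changes, 0.81 (SE 0.553, adjusted p = 0.674) for Gja4, 0.06 (SE 0.830, adjusted p = 1) for Gja5 and 0.62 (SE 0.651, adjusted p = 0.829) for Gjc1. A lower Gja1 in mutant BECs is therefore not shown to be particular to BECs. Between valve and other LECs edgeR called 0% of 19431 genes (1595 at an unadjusted p under 0.05, 791 in DESeq2). Gja4 had a difference of 0.66 (SE 0.165, adjusted p = 0.308) in edgeR and of 0.70 (adjusted p = 0.0365) in DESeq2. Within each mouse, valve LECs had 1.28 and 1.44 times the Gja4 CPM of the other LECs in the controls and 2.19, 2.53, 2.16, 2.02 and 2.90 times in the mutants. These ratios did not overlap between genotypes, and the adjusted p of edgeR missed the threshold. How many of all genes separate the genotypes in this way was not counted, so a change of the Gja4 ratio is not shown. The other LECs were also a different mix of cells by genotype. Cycling cells, whose Gja4 level is given above, were 0.546 and 1.14% of all LECs in the controls and 7.69–17.9% in the mutants. The part of this mix in the Gja4 ratios was not tested. Gja1 (0.30, SE 0.417, adjusted p = 0.905), Gja5 (0.05, SE 1.45, adjusted p = 1) and Gjc1 (-2.70, SE 2.49, adjusted p = 0.837) were not called.

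Reads of a connexin were found in many cells at levels too low to interpret, so cells were also counted at 50 CPM or more, a limit chosen after the data were seen. After thinning every cell to 50000 reads, 7.14–64.8% of venous-gate BECs had a Gja4 read at 2.18–47.1 CPM of the sum. At 50 CPM or more, Gja4 was found in 40–70% of arterial-gate BECs and at most 14.3% of venous-gate BECs per mouse, with median depths per mouse of 179864–341771 and 163068–443802 reads per cell, and in 47.5–85.4% of valve LECs. Gja5 was found at this level in 16.7–40% of arterial-gate BECs and at most 5.26% of valve LECs. A read of Gja1 in thinned cells was found in 72.4 and 67.1% of BECs in the controls and in 58.8, 45.1, 56.8, 50.8 and 52.7% in the mutants, without overlap (mean difference -16.9 percentage points, two-sided exact permutation p = 0.0952). At 50 CPM or more, Gja1 was found in 36.2 and 49.4% of BECs in the controls and in 31.0, 34.2, 38.8, 38.0 and 34.4% in the mutants, which overlap. Its share of venous-gate BECs was 10.7 and 10.5% in the controls (3 of 28 and 2 of 19 cells) and 26.7–35.7% in the mutants. Of 12 two-sided exact permutation tests of the thinned shares (4 genes in LECs, valve LECs and BECs) 4 reached 0.0952, with an adjusted p of 0.286. This is the smallest p that the test used can give for 5 against 2 mice. Besides Gja1 in BECs these were Gja1 in LECs (-7.71 percentage points), Gjc1 in LECs (7.35) and Gja5 in valve LECs (-4.14).

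Within arterial-gate BECs most cells with Gja5 also had Gja4, while fewer of those with Gja4 had Gja5. Of the 260 cells, thinned to 50000 reads, 84 had both Gja4 and Gja5, 12 Gja5 without Gja4 and 99 Gja4 without Gja5, so that 87.5% of cells with Gja5 also had Gja4 and 45.9% of cells with Gja4 had Gja5. In the 608 venous-gate BECs 35.3% of cells with Gja5 had Gja4, with 24 cells of both, 44 of Gja5 alone, 159 of Gja4 alone and 381 of neither. In valve LECs Gja1 and Gja4 were read together in 118 of 231 cells, Gja4 alone of this pair in 78, Gja1 alone in 26 and neither in 9. Whether any of these pairs was read together more often than the shares of its single genes would give was not tested. None of the 4 genes was read in 8 of these 231 cells, in 83 of 1410 other LECs, in 16 of 260 arterial-gate BECs and in 181 of 608 venous-gate BECs. These counts add cells of all mice, and cells of 1 mouse are not replicates.

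Gjc1 was low in every gate and rested on few cells. LECs had 23.1 and 22.2 CPM of Gjc1 in the controls and 19.8, 14.2, 18.7, 27.1 and 33.4 CPM in the mutants, and BECs 15.4 and 31.7 CPM, and 11.9, 13.4, 15.8, 5.83 and 27.0 CPM. In valve LECs it had 16.8 and 83.0 CPM, and 35.8, 0, 24.4, 0.648 and 22.6 CPM. The 0 of mutant 2 allows up to 0.393 CPM, the level of 3 reads in that sum, and in the other mice the top 5 cells held 75.6–100% of the reads of valve LECs. No comparison called Gjc1.

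Of the 15 other connexins examined, 8 had enough reads to be tested in LECs and in BECs, and Gjd3 was called in 2 comparisons. It was higher in valve LECs, with 186 and 375 CPM in the controls and 105, 62.8, 52.5, 80.6 and 182 CPM in the mutants, against 9.65–37.7 CPM in other LECs. It was higher in the valve gate in 7 of 7 mice without overlap, by 3.08 on the log2 scale (SE 0.318, adjusted p = 0.00212), and also in LECs against BECs (4.35, SE 0.919, adjusted p = 0.00895). The top 5 cells held 61.8–100% of its valve reads. Of the 3 pannexins, which form related channels, only 1 could be tested and it was called in no comparison.

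**Figure D5:**
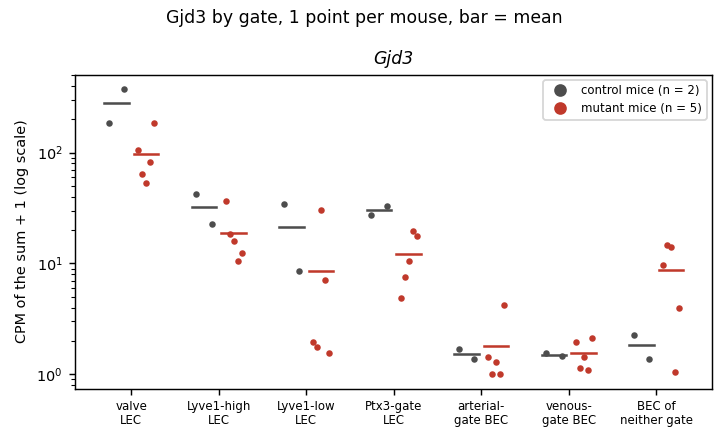
Reads of Gjd3 in CPM of the summed reads (plus 1, log scale) in 7 gates, with 1 point per mouse (2 control, 5 mutant) and a bar at the mean of each group. In valve LECs the 7 mice lie between 52.5 and 375 CPM, above every other gate.

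Of 12 genes whose proteins bind, anchor or modify connexins, none was called between genotypes in LECs, and 1 was in BECs, Dbn1, the actin-binding protein drebrin (log2 fold change 1.98, SE 0.340, adjusted p = 0.0326). The median log2 fold change of the list was 0.23 in LECs and 0.32 in BECs, against -0.01 and 0.01 over all genes. In LECs against BECs, where 22% of all genes were called, 2 of 12 were higher, Src (3.11), the kinase that phosphorylates Gja1, and Dbn1 (2.09), and 3 were lower, among them the junctional cadherin Cdh5 (-1.28) and the caveolar protein Cav1 (-0.84), with a median of -0.05 against 0.02. In arterial-gate against other BECs (2.67% of all genes called) 3 of 12 were higher, the scaffold Tjp1 (0.60), Cav1 (0.49) and Ctnnb1 (0.35), and none lower, with a median of 0.11 against -0.30. None was called in valve against other LECs.

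Of 14 regulators of valves and of the response to flow, 5 were higher in valve than in other LECs (1.43% of all genes called) and none lower, among them the guidance receptor Neo1 (2.99), the valve transcription factors Foxc2 (1.49) and Gata2 (1.30) and the matrix protein Fn1 (1.49), with a list median of 0.66 against -0.32 over all genes. Cells of the valve gate are chosen by a valve marker, so this describes the gate in which Gja4 was high. Between genotypes 1 of 14 was called in LECs, the valve integrin Itga9 (0.88, adjusted p = 0.0327), and 1 in BECs, Hoxd10 (1.54, adjusted p = 0.0261). The flow factors Klf2 and Klf4 were called in neither. In LECs against BECs (22% of all genes called) 6 were higher and 2 lower, with Foxc2 (4.57), Itga9 (2.72), Bmp4 (-1.89) and Fn1 (1.88) the furthest from 0, and in arterial-gate against other BECs (2.67% called) 3 were higher (Fn1 2.69, Gata2 0.75, Tek 0.61) and 1 lower (Hoxd10 -1.03).

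Of 14 arterial regulators, 3 were lower in mutant BECs (1.87% of all genes called) and none higher, the Notch ligand Dll4 (-1.21, adjusted p = 0.0354), the transcription factor Sox7 (-0.99, adjusted p = 0.0354) and the ephrin Efnb2 (-0.92, adjusted p = 0.0463), with a list median of -0.78 against 0.01 over all genes. These are sums over all BECs, in which the arterial gate was smaller in every mutant, and its part in these values was not tested. In LECs, Sox7 was lower in mutants (-0.72, adjusted p = 0.0399). In the arterial gate (2.67% of all genes called) 6 of the 11 that could be tested were higher and none lower, with a median of 1.32 against -0.30, among them the netrin receptor Unc5b (1.98), Dll4 (1.65), Sox17 (1.54) and the Notch ligand Jag1 (1.42). In LECs against BECs, where 10.2% of all genes were called lower and 11.9% higher, 9 of 14 were lower, among them Cxcr4 (-6.86), Nrp1 (-6.59), Sema3g (-6.44) and Sox17 (-5.34), and 3 were higher, with a median of -1.11 against 0.02.

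Genes whose log2 CPM ran most like each connexin were found over 21 sums (valve LECs, other LECs and BECs of the 7 mice) among 8974 genes. These sums share mice, libraries and the contrast of LECs with BECs, so the Pearson correlations are a description. Gja4 was closest to Cldn5 (r = 0.911), Fn1 (0.911), Cystm1 (0.908), Rcsd1 (0.907) and Siae (0.905). Gja5 ran with Ly6c1 (0.945), Nrp1 (0.943), Sp100 (0.933), Sparcl1 (0.932) and Tmem88 (0.932), and Gja1 with Sri (0.783), Tnfaip8 (0.754), Dcn (0.728), Dusp3 (0.712) and Rsu1 (0.704), the weakest set of the 4. Dcn is also a gene of the fibroblast list, whose sum in BECs was given above. For Gjc1 the closest were Ctif (0.918), Haus2 (0.912), Cops7b (0.901), Capn15 (0.899) and Ptpn9 (0.897), a gene with few reads.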

How the data were processed

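The authors aligned the Smart-Seq2 reads with TopHat2 2.1.1 to GRCm38 with a chicken PIK3CA sequence added, removed duplicates with SAMtools 0.1.18 and deposited raw counts per gene and well from featureCounts, as the methods and the submitters' processing notes state, where R 3.5.1 and Seurat 3.1.1 are also named. The annotation release is not given in the sources used here. Removing duplicates of reads without molecular barcodes can lower the counts of high genes.

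A well was kept from 200 genes and 50000 reads upwards unless mitochondrial reads exceeded 10%, and 92 spike-ins were left out. Symbols came from GENCODE vM21 (46005 of 46517 Ensembl genes). Counts were summed per mouse and gate and tested across all genes with edgeR 4.0.16 (R 4.3.3; filterByExpr, TMM, quasi-likelihood test, Benjamini-Hochberg adjusted p, called below 0.05), with mouse as a block between gates. Genes that define the compared gates were left out of tests between gates, and gates had at least 5 cells per mouse. DESeq2 1.42.0 was an alternative. The fits were tested on simulated data. CPM are reads of a gene per 1000000 reads of a sum, and SDs are over mice. Shares of cells and gate sizes were compared with two-sided exact permutation tests over the 21 ways to choose 2 of 7 mice (Python 3.11.15, numpy 2.4.6, scipy 1.17.1, pandas 2.3.3, matplotlib 3.10.9). Intervals and floors (3 reads) cover counting error only, since reads without molecular barcodes are not independent molecules. No 2 wells held identical counts.

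The members, the lists and the gates were chosen with earlier results of these data known. Named were all 4 members, other connexins that were called (1 is not reported here), up to 4 called genes of a list with the largest fold change and the 5 genes most like each member. Replicate numbers 1 and 2 appear in both genotypes, but deviations of same-numbered mice correlated at only -0.0412 to 0.0611, so the numbers were not taken as pairs. Alternatives were another normalisation, no filter on low counts, each mouse left out, cells left out by markers of other cells, both endothelial marker sums or cycling, first plates only, and blocks for plate series or replicate number. Thinned sums, single BEC gates, Ptx3-gate LECs alone, the share of the arterial gate and the limit of 50 CPM were chosen after seeing the data.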

Additional observations from a re-analysis of the deposited data

Results flagged for a closer look

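In 3 of the 36 groups of 5 mutants in which the connexins were looked at, 1 mouse lay far from the other 4 by Dixon's test. Its limit is set to flag 1 in 20 groups of independent normal values, whereas these groups share mice and some share cells. All 3 concerned Gja5 at low levels. In Lyve1-high LECs mutant 1 had 6.07 CPM of Gja5, where the nearest mutant had 3.27 CPM. In Lyve1-low LECs mutant 2 had 27.9 CPM, where the nearest had 3.86 CPM. This gate gave 56.9% of the Gja5 reads of LECs in mutant 2, 57.9% in control 1 and at most 19.7% in the other mice. LECs with 1000 CPM or more of a list of other skin cells had 80.3 CPM of Gja5 in mutant 2 (7 cells) and 105 CPM in control 1 (15 cells). The remaining LECs had 3.77 and 5.62 CPM, and only in mutant 1 were the remaining LECs higher. In BECs of neither the arterial nor the venous gate, mutant 2 had 1.07 CPM, where the nearest had 43.3 CPM. The same mouse had 384 CPM of Gja5 in arterial-gate BECs, within the range of the other mutants.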

How the results depend on the processing

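Of 102 values of the 4 connexins that carried a call, 91 kept direction and call under the alternatives, 10 lost the call and 1 reversed. Of 381 without a call 341 stayed so, 36 reversed and 4 gained one. The count of members called in mutant against control BECs went from 1 to 0 with the replicate block, the plate series block, first plates only or arterial-gate, neither-gate or venous-gate cells alone, and ranged from 0 (without control 2) to 1 with each mouse left out. The value of Gja1 was then -1.39 (adjusted p = 0.118), -1.04, -1.16, -1.38, -0.72 and 0.12, and -1.28 to -1.16 with each mouse left out. In LECs the count went from 0 to 1 without cells of both marker sums (Gja1 -1.05) and in Ptx3-gate LECs alone (-2.10), and in the valve interaction from 0 to 1 with DESeq2 (Gja4 0.70). LECs against BECs gave 0.32 for Gja1 without cells of both sums, and 0.47 to 0.67 with each mouse left out. Gja1 in the arterial gate ranged from 0.41 to 0.77. The causes were not tested. The numbers 1 and 2 were not taken as pairs, although with only 2 controls the correlations of same-numbered mice given above cannot exclude pairing. The replicate block changed no other call of a member.

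By genotype in LECs, Gja4 was -0.0004 without contaminated cells, -1.06 with the series block, -0.20 without valve cells, -0.072 without cells of both sums and -0.29 in the Ptx3 gate, and Gjc1 was -0.40 with the replicate block, -0.48 without cells of both sums and -0.22 when thinned. With the series block, valve LECs gave 0.18 for Gja1 and -0.32 for Gja4, and BECs 0.014 for Gja5 and 0.24 for Gjc1. In single BEC gates Gja4 was 0.089 (arterial) and 0.73 (venous), Gja5 0.026 (arterial) and 0.58 (neither) and Gjc1 0.25 (neither). Gjc1 in valve against other LECs was 0.72 at 100 CPM of Cldn11, and the valve interaction of Gja5 was -0.16 without contaminated cells. Shares of unthinned cells differed by -0.018 (Gjc1, LECs), -10.5 (Gja1, valve LECs), -2.01 (Gja4, valve LECs) and -2.48 percentage points (Gjc1, BECs).

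With each mouse left out, log2 fold changes by genotype ranged in LECs from -0.12 to 0.20 (Gja4), -1.56 to 0.18 (Gja5) and -0.14 to 0.17 (Gjc1), in valve LECs from -0.47 to 0.070 (Gja1) and -1.09 to 0.065 (Gja5), and in BECs from -0.9986 to 0.0051 (Gjc1). Gjc1 in valve against other LECs ranged from -1.25 to 0.040. The interactions of Gja5 ranged from -1.09 to 1.24 and from -1.44 to 1.70, and the differences in shares of valve cells from -8.35 to 29.6 (Gja1) and from -7.99 to 0.022 percentage points (Gjc1).

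Genes called by genotype ranged from 4 (replicate block) to 2472 (DESeq2) in LECs, from 0 (arterial-gate cells alone) to 2148 (DESeq2) in BECs, with 32 under the replicate block, and reached 909 (DESeq2), 31 (Cldn11 at 100 CPM) and 3 (replicate block) in valve LECs. Between gates they ranged from 59 to 2078 (valve), 199 to 2143 (arterial) and 3669 to 6605 (LECs against BECs). The interactions reached 1174 and 791 with DESeq2, the second 92 with a mouse left out. Only 2 control mice, 1 of them untreated, and few cells in the valve and Ptx3 gates limit every comparison by genotype.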
